A study of Homo sapiens with 18 samples.

Results

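The D-type cyclins CCND1, CCND2 and CCND3 and their partner kinases CDK4 and CDK6 were followed across all 18 libraries of hTERT-RPE1 cells, an established human retinal pigment epithelial line immortalised with telomerase. These 5 genes were chosen by symbol, and each had 1 row among the 57773 gene identifiers in the deposited table. Cells were untreated, treated with cytochalasin D, or treated with ZM447439, and were then sorted on DNA content into 2N and 4N populations, which gave 6 groups of 3 libraries. Cytochalasin D caps actin filaments and blocks cytokinesis, and ZM447439 inhibits Aurora kinases. Per the labels, ZM447439 was used at 2.5 µM for 24 h, Hoechst at 2 µg/mL for 60 min before sorting, and the medium held 10% serum. For cytochalasin D neither dose nor duration is labelled. The labels carry the ZM447439 text on every library, and call the controls untreated. The telomerase transgene and the Hoechst stain were common to all groups. The series design calls the replicates biological.

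A 4N sort gate takes in diploid cells in G2 or mitosis as well as tetraploid cells in G1, and a 2N gate takes in diploid cells in G1. The cells in each gate were therefore mixtures, and fewer cells of a type and less RNA per cell cannot be told apart in these libraries. The retinal pigment epithelium markers BEST1, OTX2 and PMEL averaged 86.6, 3.12 and 1.95 RPKM. MITF, SERPINF1 and RLBP1 averaged 0.151, 0.130 and 0.0625 RPKM, whereas RPE65, TYR, TYRP1, DCT, LRAT and TTR were at or near 0. Overlap of these markers with other genes was not checked, and the kit did not mark strand. The epithelial marker KRT18 averaged 65.8 RPKM and VIM, a mesenchymal filament gene, 608 RPKM. CDH1 and EPCAM, and the blood cell genes PTPRC, CD3E and HBB, were near 0, so the line carried only part of its tissue's marker set.

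D-type cyclins link growth signals to the cell cycle. Mitogens induce them in G1, they bind CDK4 or CDK6, and the active complex phosphorylates the retinoblastoma protein and its relatives, which releases E2F factors and with them the genes of cyclin E, cyclin A and DNA replication. INK4 proteins block CDK4 and CDK6 directly, and CIP/KIP proteins bind cyclin-CDK complexes more widely. In cultured adherent cells cyclin D1 is usually the main D-type cyclin, and its transcription depends on adhesion and on signals through Ras, AP-1 and other routes.

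The promoters of the partner kinases differ in a sequence that bears on a known inducer. MYC and its partner MAX bind the E-box CACGTG, and CDK4 is a textbook MYC target. The 250 bases before the RefSeq start of CDK4 and of CDK6, at the farther upstream of its starts, are shown 5′ to 3′ on the coding strand (minus strand of GRCh38.p14, CDK4 at chr12:57752311-57752560 and CDK6 at chr7:92836574-92836823), with E-boxes in capitals.
CDK4: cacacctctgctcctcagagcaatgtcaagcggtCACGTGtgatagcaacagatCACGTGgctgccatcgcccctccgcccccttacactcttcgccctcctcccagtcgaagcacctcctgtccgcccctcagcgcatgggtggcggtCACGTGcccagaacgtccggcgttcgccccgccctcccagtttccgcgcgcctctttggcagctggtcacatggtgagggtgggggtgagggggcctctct
CDK6: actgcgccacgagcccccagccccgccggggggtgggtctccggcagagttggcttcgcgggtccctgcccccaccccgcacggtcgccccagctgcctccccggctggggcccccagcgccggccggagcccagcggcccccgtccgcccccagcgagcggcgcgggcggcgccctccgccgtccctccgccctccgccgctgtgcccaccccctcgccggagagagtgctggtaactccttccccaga
The CDK4 window held 3 E-boxes, which began 216, 196 and 101 bases before the start, and the CDK6 window held none. CACGTG is its own reverse complement, so both strands were covered. At least 1 E-box was present in 6.34% of 35116 promoter windows of the same length, and at least 3 in 0.0797%. The 3 windows of CCND3, 1 for each start, held no E-box, and GC boxes (GGGCGG, either strand) were found 5 times in its window farthest upstream, 3 times in that of CDK4 and 3 times in that of CDK6. A GC box was present in 42.6% of all windows. These matches describe the letters in the windows only, and no binding was measured.

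Values were deposited as RPKM, reads scaled by gene length and by library size. Low values came out as whole reads when the whole genomic span, introns included, was taken as the length, so a long gene has a low RPKM for the reads it holds. CCND1 (ENSG00000110092) spans 13388 bases, CDK4 (ENSG00000135446) 8287, CCND2 (ENSG00000118971) 31579, CCND3 (ENSG00000112576) 115425 and CDK6 (ENSG00000105810) 231674 bases in the GENCODE 29 annotation. The ratio of the RPKM of 1 gene between groups does not depend on this length. In the tests below a constant was added to RPKM and low genes were filtered, so tested changes of long genes do depend on it. Implied library sizes were 51134840 to 78292090 reads. In all 18 libraries CCND1 held 14680 to 68342 reads, CDK4 5061 to 12500, CCND3 1531 to 3693 and CDK6 1315 to 3327, while CCND2 held 0 to 23. Counting error was thus small for all but CCND2. Libraries number 1 of both drugs and number 3 of untreated cells, in both sorts, correlated least with the rest of their group over all genes. They are called the 6 that stood apart. Their mean correlations of 0.979 to 0.989 overlapped the 0.987 to 0.992 of the other 12 libraries, and a group of 3 always has a lowest library. Since the 6 were picked from these data, leaving them out narrows the spread by choice. Adjusted p-values without them are descriptions.

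CCND1 was the dominant D-type cyclin gene and CDK4 the dominant partner kinase gene in every library. To compare genes, levels were recomputed per kilobase of summed exon length (GENCODE 29). On this scale untreated 2N cells had 168 ± 13.5 for CCND1, 51.4 ± 2.33 for CDK4, 8.43 ± 0.364 for CCND3, 3.41 ± 0.121 for CDK6 and 0.0119 ± 0.00558 for CCND2 (exon-length RPKM, SD, n = 3). CCND1 made up 90.8% to 96.6% of the summed exon-length level of the 3 cyclins over the 18 libraries. CCND3 made up 3.36% to 9.18%, and CCND2 at most 0.0595%. Among the kinases CDK4 made up 87.1% to 94.6% of the summed level and CDK6 5.43% to 12.9%. The CCND1 share was 96.0% ± 0.255 in untreated 4N cells and 91.8% ± 0.904 in 4N cells under cytochalasin D, with CCND3 at 3.95% ± 0.255 and 8.17% ± 0.926 (SD, n = 3); the libraries of these groups did not overlap in either share, and the difference was not tested.

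**Figure D1:**
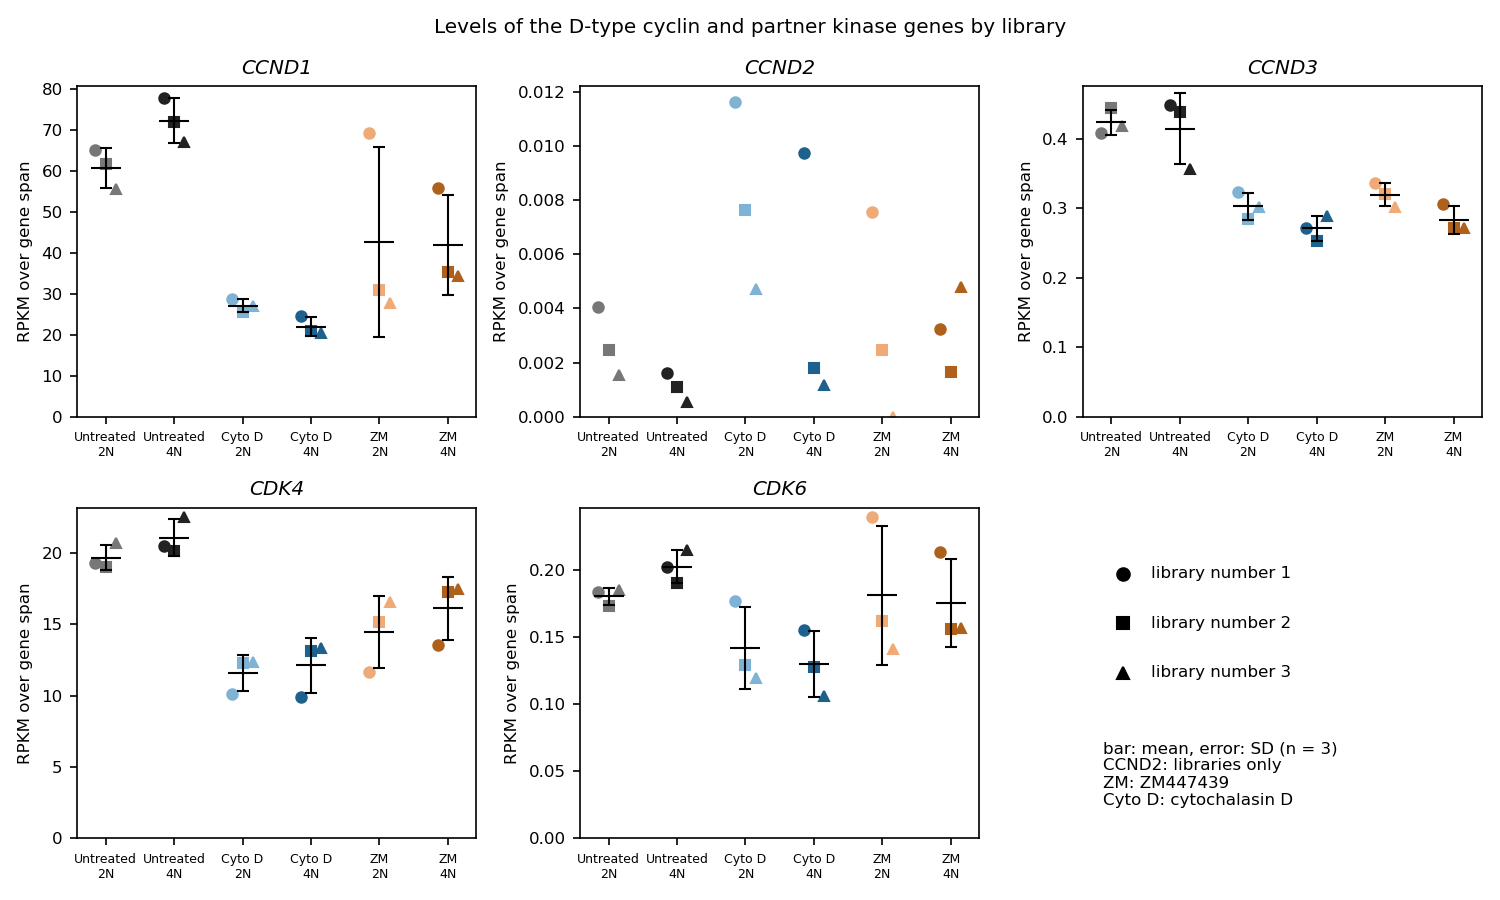
Deposited RPKM (over the gene span, linear axes from 0) of the 5 genes in each of the 18 libraries; symbols give the library number, horizontal bars the group mean and error bars the SD (n = 3), drawn for all but CCND2. CCND1 lay between 20.5 and 28.8 RPKM in the 6 cytochalasin D libraries and at 55.6 or above in the 6 untreated ones, and ZM447439 libraries number 1 stand well above numbers 2 and 3 for CCND1.

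Cyclin D1 binds and activates CDK4 and CDK6. CCND1 measured 65.2, 61.6 and 55.6 RPKM in untreated 2N libraries 1, 2 and 3. In untreated 4N cells it measured 77.8, 72.0 and 67.0 RPKM. Under cytochalasin D the 2N libraries had 28.8, 25.7 and 27.0 RPKM and the 4N libraries 24.6, 20.9 and 20.5 RPKM. All 6 cytochalasin D libraries lay below every untreated library. Under ZM447439 the values were 69.3, 30.9 and 27.8 RPKM in 2N cells and 55.9, 35.4 and 34.4 RPKM in 4N cells. Number 1 was high in both sorts, and in 2N cells it exceeded every untreated 2N library. In order of the group means, untreated 4N cells (72.3 RPKM) were followed by untreated 2N (60.8), ZM447439 2N (42.7), ZM447439 4N (41.9), cytochalasin D 2N (27.2) and cytochalasin D 4N cells (22.0). Untreated 2N and ZM447439 2N libraries overlapped, as did both ZM447439 groups; the other neighbours in this order did not overlap.

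The question of the drug comparisons was how each route to polyploidy changed RNA levels within a sort. Tests used limma on log2(RPKM + 0.5) over the 13037 genes averaging 0.5 RPKM or more, among them CCND1 and CDK4, with Benjamini-Hochberg adjustment and a threshold of 0.05. CCND1 fell under cytochalasin D by 1.15 on the log2 scale in 2N cells (SE 0.261, adjusted p = 0.0013, limma), 2.21-fold lower on this scale. In 4N cells it fell by 1.69 (SE 0.261, adjusted p = 4.0e-05, limma), 3.24-fold lower. With ZM447439 it fell by 0.81 in 4N cells (SE 0.261, adjusted p = 0.016, limma), 1.76-fold lower. In 2N cells the ZM447439 difference was -0.63 (SE 0.261, adjusted p = 0.055, limma) and did not pass.

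The ZM447439 results for CCND1 depended on single libraries. Without ZM447439 2N library 1, the 2N difference was -1.03 and passed (adjusted p = 0.00013, limma). In 4N cells the call was lost without untreated library 1 (adjusted p = 0.052, limma), without ZM447439 library 2 (0.062) or without ZM447439 library 3 (0.067). Without the 6 libraries that stood apart, the 2N difference under ZM447439 was -1.10 (adjusted p = 1.1e-06, limma). That p-value is a description, since these libraries were picked from the same data.

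CDK4, the more abundant partner kinase transcript, measured 19.3, 19.0 and 20.7 RPKM in untreated 2N cells and 20.5, 20.1 and 22.5 RPKM in untreated 4N cells. Under cytochalasin D it measured 10.1, 12.3 and 12.3 RPKM in 2N cells and 9.87, 13.1 and 13.4 RPKM in 4N cells. Under ZM447439 it measured 11.7, 15.1 and 16.5 RPKM in 2N cells and 13.6, 17.3 and 17.5 RPKM in 4N cells. All 12 drug-treated libraries lay below all 6 untreated ones. Number 1 was the lowest library in each drug group, whereas for CCND1 it was the highest in each. By group means the order was untreated 4N (21.0 RPKM), untreated 2N (19.7), ZM447439 4N (16.1), ZM447439 2N (14.5), cytochalasin D 4N (12.1) and cytochalasin D 2N cells (11.6), and only untreated 2N and ZM447439 4N were neighbours that did not overlap.

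CDK4 fell in each of the 4 drug comparisons. With cytochalasin D it fell by 0.74 in 2N cells (SE 0.139, adjusted p = 0.00025, limma) and by 0.78 in 4N cells (SE 0.139, adjusted p = 0.00014, limma), 1.67-fold and 1.72-fold lower. With ZM447439 it fell by 0.44 in 2N cells (SE 0.139, adjusted p = 0.014, limma) and by 0.38 in 4N cells (SE 0.139, adjusted p = 0.030, limma), 1.36-fold and 1.30-fold lower. Both ZM447439 calls were lost under quantile normalization (adjusted p = 0.068 and 0.34, limma). The 2N call was also lost without ZM447439 library 1 (0.069). The 4N call was also lost without a filter (0.066), after rescaling to a common median ratio (0.081), without untreated library 1 or 3 (0.053 and 0.095), or without ZM447439 library 1 (0.14).

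These calls stood among many. In the direction of lower levels, 39.5% of the 13037 genes passed for cytochalasin D in 2N cells and 44.4% in 4N cells. For ZM447439 the shares were 32.5% and 35.5%. Of CCND1 and CDK4, both fell in 3 of these comparisons and CDK4 alone in the other. The median log2 change of all genes tested was -0.13 for cytochalasin D in 4N cells, and between -0.08 and -0.04 in the other 3 comparisons. After rescaling to a common median ratio, CCND1 and CDK4 still fell in both cytochalasin D comparisons. How many of all genes had groups of libraries that did not overlap was not counted. Lack of overlap, wherever it is given, is therefore a description.

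CCND3 and CDK6 lay below 0.5 RPKM over their long spans, and were tested on log2(RPKM + 0.05) over the 24347 genes averaging 0.05 RPKM or more. CCND3, the gene of cyclin D3, measured 0.409, 0.444 and 0.418 RPKM in untreated 2N cells and 0.450, 0.439 and 0.357 RPKM in untreated 4N cells. Cytochalasin D libraries had 0.323, 0.285 and 0.302 RPKM (2N) and 0.272, 0.253 and 0.289 RPKM (4N). ZM447439 libraries had 0.336, 0.321 and 0.303 RPKM (2N) and 0.307, 0.272 and 0.271 RPKM (4N). Every drug-treated library was below every untreated library. CCND3 fell by 0.42 and 0.53 with cytochalasin D in 2N and 4N cells (SE 0.0802 each, adjusted p = 0.00041 and 5.1e-05, limma). It fell by 0.36 and 0.48 with ZM447439 (adjusted p = 0.0022 and 0.00024, limma). On this scale, whose pseudocount makes folds of low genes too small, the levels were 1.28-fold to 1.44-fold lower. The calls held under all alternatives run.

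By group means CCND3 was ordered as untreated 2N (0.424 RPKM), untreated 4N (0.415), ZM447439 2N (0.320), cytochalasin D 2N (0.303), ZM447439 4N (0.283) and cytochalasin D 4N (0.271). All neighbours in this order overlapped except untreated 4N and ZM447439 2N.

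CDK6, the less abundant partner kinase transcript, measured 0.183, 0.173 and 0.185 RPKM in untreated 2N cells and 0.202, 0.190 and 0.215 RPKM in untreated 4N cells. Under cytochalasin D it measured 0.177, 0.129 and 0.120 RPKM (2N) and 0.155, 0.128 and 0.106 RPKM (4N). Under ZM447439 it measured 0.240, 0.162 and 0.141 RPKM (2N) and 0.214, 0.156 and 0.157 RPKM (4N). As for CCND1, number 1 was the highest library in each drug group. The 4N libraries under cytochalasin D were all below the untreated 4N ones, while ZM447439 and untreated libraries overlapped in both sorts. In order, untreated 4N (0.203 RPKM), ZM447439 2N (0.181), untreated 2N (0.181), ZM447439 4N (0.175), cytochalasin D 2N (0.142) and cytochalasin D 4N (0.130) overlapped at every step.

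CDK6 fell only in cytochalasin D 4N cells among the 4 drug comparisons, by 0.50 (SE 0.157, adjusted p = 0.013, limma), 1.41-fold lower, and that call was lost without cytochalasin D 4N library 3 (adjusted p = 0.062, limma). The other differences were -0.28 for cytochalasin D in 2N cells, -0.02 for ZM447439 in 2N cells and -0.17 for ZM447439 in 4N cells (adjusted p = 0.16, 0.94 and 0.41, limma). The 95% interval for ZM447439 in 2N cells ran from -0.36 to 0.32, so changes within that range could not be told from none. Without the 6 libraries that stood apart, the differences for cytochalasin D in 2N cells (-0.39, adjusted p = 0.0045, limma) and for ZM447439 in 4N cells (-0.25, adjusted p = 0.035, limma) passed. In the direction of lower levels, 30.3% and 34.2% of the 24347 genes passed with cytochalasin D in 2N and 4N cells, and 24.9% and 26.8% with ZM447439.

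**Figure D2:**
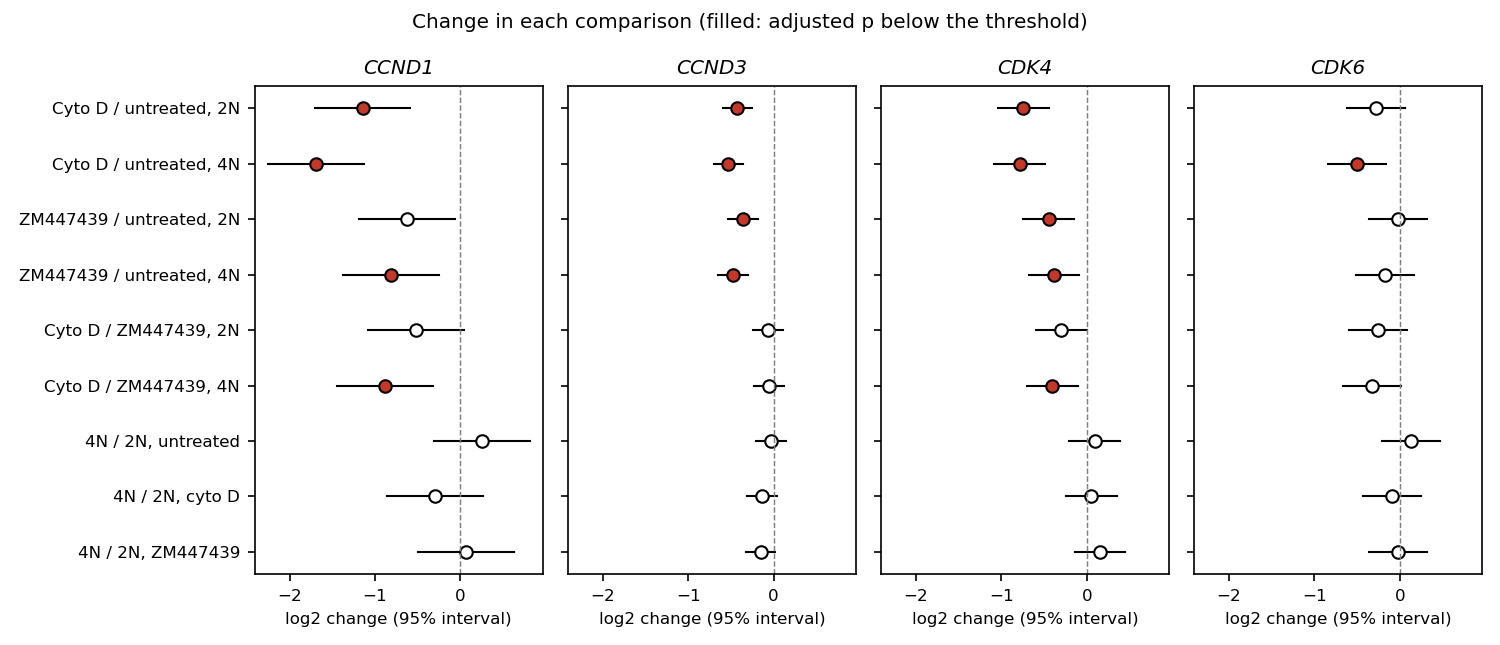
log2 change (horizontal axis, with 95% interval from limma) of CCND1, CCND3, CDK4 and CDK6 in 9 comparisons; filled points passed an adjusted p of 0.05. CCND3 and CDK4 are filled in all 4 drug comparisons with untreated cells, at -0.36 to -0.78, and no gene is filled in the 4N with 2N comparisons.

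CCND2 encodes cyclin D2, which many cell types use in place of cyclin D1. Its 132 reads in all 18 libraries are too few for a test. The reads numbered 10, 4 and 3 in untreated 2N libraries and 3, 2 and 1 in untreated 4N libraries. Cytochalasin D libraries had 23, 16 and 10 reads (2N) and 19, 3 and 2 reads (4N), and ZM447439 libraries 13, 5 and 0 (2N) and 6, 3 and 9 (4N). Summed by group, cytochalasin D 2N cells had 49 reads (exact Poisson 95% interval 36.3 to 64.8) and untreated 2N cells 17 (9.90 to 27.2). Cytochalasin D 4N cells had 24 (15.4 to 35.7) against 6 (2.20 to 13.1) in untreated 4N cells, and both ZM447439 groups had 18 (10.7 to 28.4). These intervals cover counting error only, and 19 of the 24 reads in the cytochalasin D 4N group came from number 1. The library with 0 reads allows up to 3 reads at this depth.

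Sorts were compared within each treatment, to ask how 4N cells differed from 2N cells. No member passed in any of the 3 comparisons in limma, and none had an unadjusted p under 0.05. In untreated cells CCND1 was 0.25 higher in 4N cells (SE 0.261, adjusted p = 0.61, limma), with 17.4% of the 13037 genes called. Under cytochalasin D it was at -0.30 (adjusted p = 1.00, limma), where no gene passed and 682 had an unadjusted p under 0.05. Under ZM447439 it was at 0.06 (adjusted p = 0.92, limma), with 7.66% of genes called. Of the 24347 genes tested with CCND3 and CDK6, 14.6% passed in untreated cells, 0% under cytochalasin D (1297 at an unadjusted p under 0.05) and 4.09% under ZM447439.

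Library numbers were taken to pair the sorts, since same-numbered 2N and 4N libraries deviated together from their group means. Libraries of different numbers were not compared, so the pairing is an assumption. Within pairs, CCND1 was higher in 4N than in 2N cells by 0.25, 0.23 and 0.27 in untreated cells (log2(RPKM + 0.05)). It was lower by -0.23, -0.30 and -0.39 under cytochalasin D, so that all 3 pairs went the other way. Under ZM447439 the pairs gave -0.31, 0.19 and 0.30, with number 1 against the others. The difference between cytochalasin D and untreated cells in the 4N with 2N difference was -0.55 (SE 0.370, adjusted p = 0.47, limma). With the replicate number within each treatment as a block, it passed (adjusted p = 0.038, limma), as it did when fitted on the 12 libraries compared (0.024). Of all genes, 7.85% passed this interaction test without the block. The share passing with the block, or on the 12 libraries, was not counted, so these calls have no background beside them. For ZM447439 the interaction was -0.19 (SE 0.370, adjusted p = 0.80, limma), where 10.1% passed.

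CDK6 showed the same order of signs, at 0.11, 0.11 and 0.17 in the untreated pairs and -0.14, -0.01 and -0.12 under cytochalasin D. Its interaction was -0.22 (SE 0.222, adjusted p = 0.68, limma) and did not pass with the block either. Of the 24347 genes, 5.49% passed this interaction for cytochalasin D and 7.36% for ZM447439. CDK4 was higher in 4N cells in 8 of 9 pairs, with differences of -0.04 to 0.21, though under quantile normalization the untreated difference of 0.10 came to 0.00, and CCND3 was lower in 8 of 9, with differences of -0.21 to 0.12. CDK4 under ZM447439, at 0.16 in the main model, passed with the block (adjusted p = 0.041, limma), where the share of all genes passing was not counted. Without the 6 libraries that stood apart, CCND1 passed in all 3 sort comparisons. It was at 0.24 in untreated cells, -0.34 under cytochalasin D and 0.25 under ZM447439 (adjusted p = 0.019, 0.016 and 0.013, limma). Its SE was then 0.0599 in place of 0.261. As the 6 were picked for their low correlation, these p-values are descriptions.

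**Figure D3:**
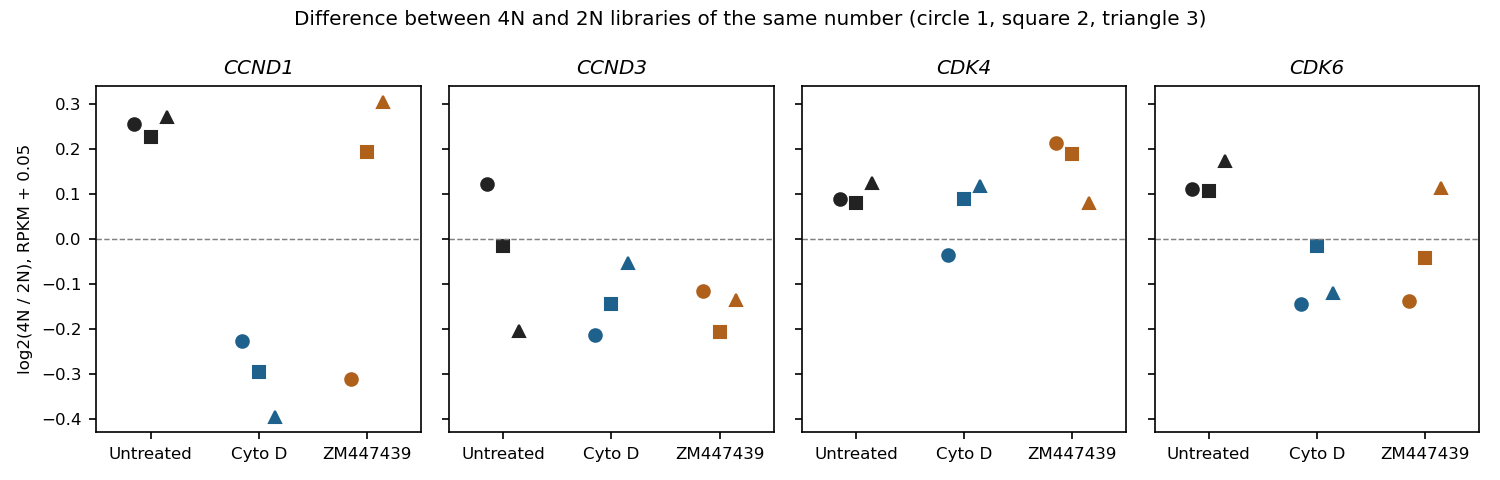
Difference between the 4N and 2N library of the same number on the log2(RPKM + 0.05) scale (vertical axis), by treatment, for CCND1, CCND3, CDK4 and CDK6; each symbol is 1 pair. The 3 untreated CCND1 pairs lie at 0.23 to 0.27 and the 3 cytochalasin D pairs at -0.39 to -0.23.

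The drugs were compared with each other within each sort, and the doses or times may differ since none is given for cytochalasin D. In 4N cells CCND1 was lower under cytochalasin D than under ZM447439 by -0.88 (SE 0.261, adjusted p = 0.014, limma) and CDK4 by -0.40 (SE 0.139, adjusted p = 0.030, limma), with 27.8% of genes called lower. The CCND1 call was lost without ZM447439 4N library 1 (adjusted p = 0.069, limma). The CDK4 call was lost without a filter (0.070), after rescaling to the median ratio (0.057), under quantile normalization (0.088), on the 6 libraries alone (0.091), without cytochalasin D library 1 (0.14) or without ZM447439 library 2 or 3 (0.10 and 0.11). In 2N cells the differences of -0.52 and -0.30 did not pass (adjusted p = 0.14 and 0.11, limma), against a share of 23.2% called lower. With the replicate number as a block over all libraries, both passed in 2N cells (adjusted p = 0.046 for CCND1 and 0.011 for CDK4, limma). This block also tied untreated to drug-treated libraries, which were not taken as paired. It is therefore not a pairing of the drugs alone. The 2N difference of CCND1 rested on ZM447439 library 1, without which it was -0.11 (adjusted p = 0.64, limma), and leaving out ZM447439 library 3 gave -0.76 (adjusted p = 0.041, limma). That of CDK4 was -0.44 without ZM447439 library 1 (adjusted p = 0.023, limma) and -0.20 without library 3 (adjusted p = 0.33, limma).

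CCND3 did not differ detectably between the drugs, at -0.07 in 2N cells (95% interval -0.24 to 0.10) and -0.05 in 4N cells (-0.22 to 0.12). CDK6 was at -0.26 in 2N cells (adjusted p = 0.26, limma) and -0.33 in 4N cells (adjusted p = 0.13, limma). The shares of the 24347 genes called lower were 16% in 2N and 19.6% in 4N cells. In 4N cells CDK6 passed with the same block over all libraries, untreated ones included (adjusted p = 0.038, limma). Leaving out 1 library at a time took the CDK6 difference to between -0.38 and -0.081 in 2N cells and between -0.43 and -0.21 in 4N cells, smallest in each sort without ZM447439 library 1, and no call was made.

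Drug-treated 4N cells were also compared with untreated 2N cells. Under cytochalasin D, CCND1 fell by 1.45 (SE 0.261, adjusted p = 0.00020, limma) and CDK4 by 0.69 (SE 0.139, adjusted p = 0.00051, limma), where 40.2% of genes were called lower. CCND3 fell by 0.56 (SE 0.0802, adjusted p = 3.7e-05, limma), and CDK6 was at -0.37 (adjusted p = 0.061, limma). CDK6 passed under 6 alternatives, among them without cytochalasin D 4N library 1 (-0.47, adjusted p = 0.034, limma) and without the 6 libraries that stood apart (-0.45, adjusted p = 0.0020, limma). Under ZM447439 CCND3 fell by 0.51 (SE 0.0802, adjusted p = 0.00025, limma). CCND1 at -0.57 and CDK4 at -0.29 did not pass (adjusted p = 0.093 and 0.11, limma), where 27.3% of genes were called lower. CCND1 passed without ZM447439 4N library 1 (-0.79, adjusted p = 0.032, limma). Without the 6 libraries that stood apart both passed, CCND1 at -0.85 (adjusted p = 9.5e-06, limma) and CDK4 at -0.14 (adjusted p = 0.018, limma). CDK6 was at -0.04 (adjusted p = 0.87, limma). Of the 24347 genes, 30.5% were called lower for cytochalasin D and 19.8% for ZM447439. These comparisons share the untreated 2N libraries with those above.

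The kit did not mark strand, so a read in a stretch where genes overlap could belong to either. In GENCODE 29, LTO1 overlaps the 3′ end of CCND1, and its reads came to 28.0% to 34.0% of those of CCND1. TSPAN31 overlaps CDK4, with 42.0% to 60.6% of its reads. MARCHF9, on the other side, held 4.77% to 5.40% of the reads of CDK4 in untreated 4N cells and 19.9% to 23.9% in cytochalasin D 4N cells. CDK6-AS1 held at most 1.26% of the reads of CDK6. How many reads of each pair came from the shared stretch was not tested, so the levels of CCND1 and CDK4 are uncertain by reads that could belong to either gene.

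The genes with the pattern most like each member over the 18 libraries were named by Pearson correlation on log2(RPKM + 0.5). This scale was used for CCND3 and CDK6 as well. For CCND1 they were LTO1 (r = 0.998), SMURF2 (0.984) and SEMA7A (0.967). For CDK4 they were TSPAN31 (0.979), CARS2 (0.974) and MCUR1 (0.970). The first gene for each is its overlapping neighbour. For CCND3 they were ARL10 (0.964), EEF1GP1 (0.954) and SERHL (0.946), and for CDK6 they were ASAP2 (0.956), ENSG00000250906 (0.948) and LMO7 (0.942). Among the members, CCND1 correlated at r = 0.87 with CDK6, 0.82 with CCND3 and 0.64 with CDK4, and CDK4 at 0.34 with CDK6 (log2(RPKM + 0.05)). These 18 points form 6 treatment groups and share library preparation, so the correlations are descriptions.

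The inhibitor genes moved in both directions. All 7 INK4 and CIP/KIP genes were above the filter, CDKN1C only through its high values under cytochalasin D. Under cytochalasin D 5 rose and 1 fell in 2N cells, and 4 rose and 2 fell in 4N cells, where 27.1% and 26.1% of all genes rose. Under ZM447439 2 rose and 2 fell in 2N cells, and 3 rose and 2 fell in 4N cells, where 23.6% and 19.6% of all genes rose. Without CDKN1C, 4 rose and 1 fell with cytochalasin D in 2N cells and 3 rose and 2 fell in 4N cells, and 2 rose and 2 fell with ZM447439 in 4N cells. The median log2 change of all 7 was 0.38, 0.28, 0.40 and -0.10 in these comparisons, in that order.

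CDKN1A, the p21 gene and a p53 target, measured 22.5, 22.7 and 11.4 RPKM in untreated 4N cells, 106, 49.0 and 49.4 RPKM in cytochalasin D 4N cells and 123, 56.8 and 54.9 RPKM in ZM447439 4N cells. Number 1 had the highest value in both drug groups, and neither overlapped the untreated libraries. CDKN1A rose by 1.79 with cytochalasin D (SE 0.54, adjusted p = 0.0088, limma) and by 1.98 with ZM447439 (SE 0.54, adjusted p = 0.0066, limma) in 4N cells. In 2N cells it rose by 1.65 with cytochalasin D (adjusted p = 0.015, limma), while ZM447439 libraries at 77.7, 18.3 and 18.7 RPKM gave a difference of 0.97 that did not pass (adjusted p = 0.15, limma). CDKN1C, the p57 gene, measured 0.922, 1.56 and 1.96 RPKM in cytochalasin D 2N cells against 0.244, 0.256 and 0.213 RPKM in untreated 2N cells. In 4N cells it measured 1.18, 1.96 and 1.84 RPKM under cytochalasin D against 0.180, 0.210 and 0.131 RPKM untreated. Since the high group carried it past the filter, these values are a description. CDKN2B, the p15 gene, rose in all 4, by 1.22 and 0.92 with cytochalasin D and 1.15 and 0.61 with ZM447439 (adjusted p between 0.00054 and 0.0496, limma). In 4N cells it measured 10.0, 4.12 and 4.41 RPKM under ZM447439 against 3.84, 3.68 and 3.18 RPKM untreated. ZM447439 library 1 was thus far above numbers 2 and 3, and the call was not recomputed without it.

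Other INK4 genes fell. CDKN2C, the p18 gene, measured 5.56, 5.55 and 6.44 RPKM in untreated 4N cells, 1.27, 1.33 and 1.46 RPKM in cytochalasin D 4N cells and 1.43, 1.83 and 1.85 RPKM in ZM447439 4N cells. It fell by 1.77 and 1.53 in 4N cells and by 0.95 and 0.81 in 2N cells with cytochalasin D and ZM447439. CDKN2D, the p19 gene, measured 9.41, 9.23 and 9.11 RPKM in untreated 4N cells but 2.47, 2.84 and 1.77 RPKM in untreated 2N cells. CDKN2D and CDKN2C rose with the 4N sort in untreated cells by 1.79 and 1.18 (adjusted p = 1.5e-07 and 1.2e-06, limma), and both interactions were lower for cytochalasin D (-1.71 and -0.82) and for ZM447439 (-1.60 and -0.72). CDKN2D fell in 4N cells by 1.54 with cytochalasin D and by 1.98 with ZM447439. CDKN2A rose with cytochalasin D by 0.31 (2N) and 0.28 (4N), and CDKN1B, the p27 gene, rose in 2N cells by 0.38 with cytochalasin D and 0.40 with ZM447439.

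**Figure D4:**
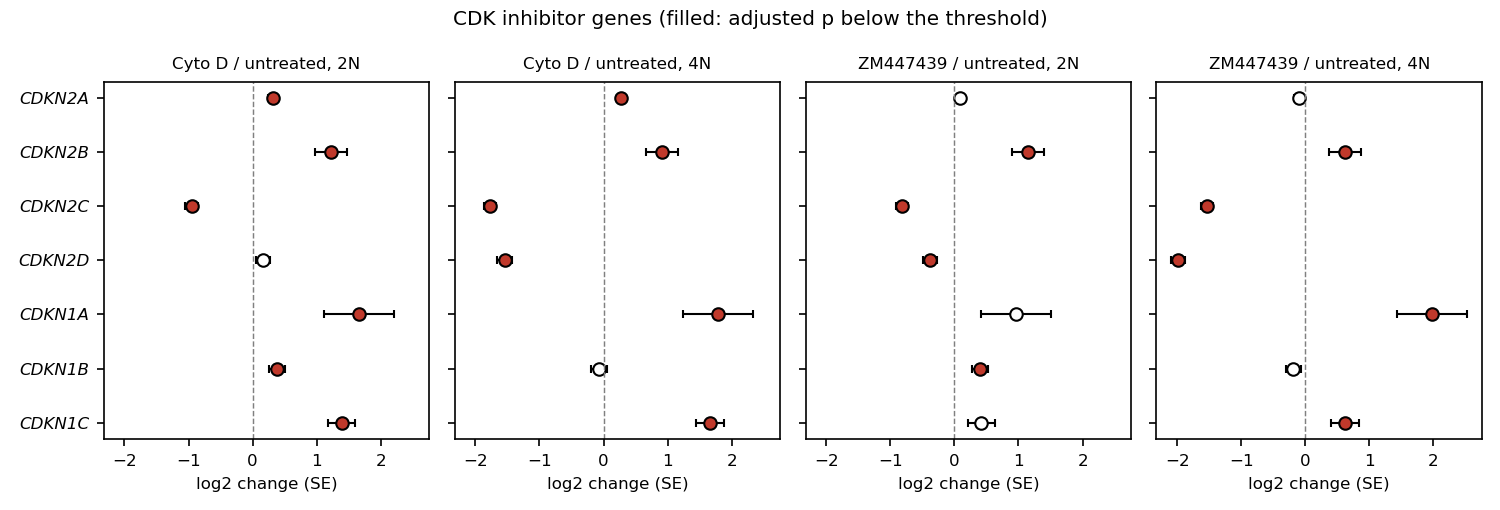
log2 change (horizontal axis, error bars SE from limma) of the 7 inhibitor genes in the 4 comparisons of a drug with untreated cells; filled points passed an adjusted p of 0.05. CDKN2B is filled to the right and CDKN2C to the left in all 4 panels; CDKN1C passed the filter only through its cytochalasin D libraries.

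Genes downstream of the kinases fell with both drugs. Of 12 cyclin E and RB-E2F target genes, 11 passed the filter; all 11 fell with cytochalasin D in both sorts and with ZM447439 in 2N cells, and 10 fell with ZM447439 in 4N cells. The shares of all 13037 genes that fell were 39.5% (2N) and 44.4% (4N) with cytochalasin D, and 32.5% and 35.5% with ZM447439. The median log2 changes of the 11 target genes were -2.67 (2N) and -2.36 (4N) with cytochalasin D and -1.67 and -1.13 with ZM447439. CCNE2 passed the filter only through its untreated 2N libraries, which averaged 2.46 RPKM. Its falls against these libraries were favoured in advance and are a description. RRM2, a subunit of ribonucleotide reductase, fell by 3.81 (2N) and fell by 3.97 (4N) with cytochalasin D, and fell by 2.07 and 2.20 with ZM447439. CCNA2, the cyclin A gene, fell by 3.87 with cytochalasin D and 2.50 with ZM447439 in 4N cells. The cyclin E genes CCNE1 and CCNE2 fell with the 4N sort in untreated cells, CCNE1 by 1.91 on log2(RPKM + 0.05) and CCNE2 by 1.41 on log2(RPKM + 0.5), scales that cannot be set against each other. Of the 4 retinoblastoma and E2F partner genes above the filter, 1 rose and 3 fell in each drug comparison, against the same shares. The 12 G2/M genes, chosen to check the sort, all fell with each drug in each sort, and 11 of the 12 rose with the 4N sort in untreated cells and under ZM447439, where 17.4% and 7.66% of all genes changed. Under cytochalasin D none passed, at a median of 0.76. The summed level of the 12 genes ran from 91.9 to 121 RPKM in untreated 2N libraries, 308 to 323 in untreated 4N, 9.70 to 17.4 in cytochalasin D 2N, 26.4 to 26.8 in cytochalasin D 4N, 12.4 to 28.7 in ZM447439 2N and 44.5 to 64.7 in ZM447439 4N libraries. This level moved with the drug comparisons of the members, and its part in them was not tested.

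Upstream and supporting genes were mixed. Of 16 inducers of D-type cyclins above the filter, 5 rose and 6 fell with cytochalasin D in 2N cells, 3 rose and 8 fell in 4N cells, and with ZM447439 2 rose and 7 fell in 2N and 0 rose and 6 fell in 4N cells. Of all genes, 27.1% rose and 39.5% fell with cytochalasin D in 2N cells, 26.1% and 44.4% in 4N cells, and with ZM447439 23.6% rose and 32.5% fell in 2N and 19.6% and 35.5% in 4N cells. The counts of inducers were near these shares with cytochalasin D in 2N cells, as were the counts that fell with either drug in 4N cells. No departure from the shares was tested in any comparison. MYC and FOSL1 are named here after their values were seen. MYC, whose product binds E-boxes of the kind printed for CDK4, measured 19.6, 17.5 and 14.7 RPKM in untreated 2N cells and 15.7, 7.98 and 8.96 RPKM in cytochalasin D 2N cells. It fell by 0.69 in 2N and 0.81 in 4N cells with cytochalasin D and by 0.73 with ZM447439 in 2N cells, while the ZM447439 difference of -0.68 in 4N cells did not pass (adjusted p = 0.058, limma). Its libraries number 1 were the highest under both drugs, at 13.1 to 15.7 RPKM, where CDK4 was lowest. A link between the levels of MYC and CDK4 was not tested. FOSL1, a subunit of AP-1, fell in all 4 drug comparisons, by 1.16 and 1.85 with cytochalasin D and 1.20 and 1.40 with ZM447439. Of 4 CDK activation and chaperone genes above the filter, 3 fell in 2N and 4 in 4N cells with either drug, to be read against the same shares of all genes. Of 6 cyclin D turnover genes above the filter, 4 fell and 0 rose with cytochalasin D in each sort. With ZM447439, 3 fell and 1 rose in 2N cells, and 3 fell and 2 rose in 4N cells. In that last comparison 19.6% of all genes rose and 35.5% fell, and the other shares are given above. CUL1 passed the filter only through its untreated libraries, which averaged 0.760 (2N) and 0.755 RPKM (4N), so its part in these counts is a description.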

How the data were processed

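Poly-A RNA of 18 samples was sequenced without strand marking. The only file, a table of RPKM, holds values as the authors deposited them; per the submitters' processing notes, CASAVA 1.8.2, TopHat2, edgeR and the hg19 build were used, while settings and the tool that counted reads are not stated there. Depth was recovered from low values: with the gene span, 88.9% to 89.4% of values under 200 reads came out whole within 0.05 reads, against 16.0% to 18.1% with exon length. The sum of reads came to 0.97 to 1.13 of the implied size, so the true depth may differ. Symbols were found for 52338 identifiers. The 18 libraries were grouped by drug and ploidy labels into 6 groups of 3.

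Limma 3.58.1 in R 4.3.3 was fitted to log2(RPKM + 0.5), genes averaging 0.5 RPKM or more, with 1 mean per group, a trended prior (12 residual degrees of freedom, prior 2.02) and two-sided tests adjusted by Benjamini-Hochberg at 0.05. CCND3 and CDK6 were taken from the same model on log2(RPKM + 0.05), genes averaging 0.05 RPKM or more. A pseudocount makes folds of low genes too small. P-values measure the spread between libraries. The procedure was tested on simulated data. CCND2 had too few reads for a test.

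The members and gene lists were chosen with earlier results of these data known. Named were the 5 members, 3 genes most like each tested member, all inhibitor genes, and at most the 3 list genes with the largest called change in each direction of a comparison. Pairing by library number was checked by the correlation of deviations from group means over all genes. Same-numbered 2N and 4N libraries correlated at 0.19 to 0.63 (9 values) and the drugs with each other at 0.23 to 0.52 (6 values). These were taken as paired. The drugs with untreated cells gave -0.21 to 0.34 (18 values) and were not taken as paired, though this range overlapped both others. Libraries of different numbers were not compared, so the pairing is an assumption. Alternatives were other pseudocounts, no filter, other scalings, RPM, fewer libraries, a replicate block, and leaving out each library or the 6 that stood apart. Shares of all genes called were counted for the main fits only, not under the alternatives.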

Additional observations from a re-analysis of the deposited data

Results flagged for a closer look

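CCND1 is set out here because all 3 untreated pairs had the higher level in 4N cells and all 3 cytochalasin D pairs the lower one. The difference between the treatments in the 4N with 2N difference was -0.55 on the log2 scale. The interaction test in limma gave an adjusted p of 0.47, and with the replicate number within each treatment as a block it gave 0.038. The share of all genes passing with the block was not counted.

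CDK6 went the same way, higher in 4N cells in all 3 untreated pairs and lower in all 3 cytochalasin D pairs. Its difference was -0.22 with an adjusted p of 0.68 in limma, and 0.17 with the block. The pair with the least difference under cytochalasin D was at -0.01, and the direction of each pair rests on single libraries.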

How the results depend on the processing

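Of 848 recomputed member changes, 763 kept their direction and their side of the threshold, 33 reversed, 32 came to pass and 20 no longer passed. CCND3 kept its 6 calls against untreated cells throughout. The counts below are of CCND1 and CDK4 passing, or of CCND3 and CDK6 where said, and the cause of each move was not tested unless fewer libraries or genes entered.

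Without the 6 libraries that stood apart, counts of CCND1 and CDK4 went from 0 to 1 for the sort in untreated and in cytochalasin D cells and from 0 to 2 under ZM447439, from 1 to 2 for ZM447439 in 2N cells, from 0 to 1 between the drugs in 2N cells, from 0 to 2 for ZM447439 4N against untreated 2N cells, and from 0 to 1 for the cytochalasin D interaction. For CCND3 and CDK6 they went from 1 to 2 for cytochalasin D in 2N cells, ZM447439 in 4N cells and cytochalasin D 4N against untreated 2N cells, and from 0 to 1 between the drugs in 4N cells. These libraries were picked from the same data, so calls gained without them are descriptions. Reversed without them were CDK4 in the cytochalasin D interaction (0.018) and CCND1 in the ZM447439 interaction (0.0065). CCND3 in the untreated sort (0.054) and CDK6 in the ZM447439 sort (0.035) reversed as well.

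Quantile normalization took CCND1 and CDK4 from 1 to 0 for ZM447439 in 2N cells and from 2 to 1 in 4N cells and between the drugs in 4N cells. It reversed CDK4 in the untreated sort (-0.0035) and in the cytochalasin D interaction (0.077), and CDK6 with ZM447439 in 2N cells (0.0012). Median-ratio scaling gave 1 in place of 2 for ZM447439 in 4N cells and between the drugs in 4N cells, and reversed CDK4 in the cytochalasin D interaction (0.015) and CDK6 with ZM447439 in 2N cells (0.010). Without a filter both counts were 1 as well. RPM gave 2 for ZM447439 in 2N cells. On only the libraries compared, the counts were 1 between the drugs in 4N cells and 1 for the cytochalasin D interaction. CCND3 and CDK6 gave 2 in place of 1 for cytochalasin D 4N against untreated 2N cells under quantile normalization, RPM, only the libraries compared and the replicate block.

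The replicate block over all libraries gave 2 for ZM447439 in 2N cells, 2 between the drugs in 2N cells, 2 for ZM447439 4N against untreated 2N cells, and 1 of CCND3 and CDK6 between the drugs in 4N cells. The block within each drug gave 1 for the ZM447439 sort and 1 for the cytochalasin D interaction. Apart from these and cytochalasin D 4N against untreated 2N cells, above, the block changed no member's call. Untreated and drug-treated libraries share a number only.

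Leaving out 1 library at a time, the counts for ZM447439 in 4N cells ran from 0 to 2, between the drugs from 0 to 1 in 2N and from 1 to 2 in 4N cells, and for ZM447439 4N against untreated 2N cells from 0 to 1. For CCND3 and CDK6 they ran from 1 to 2 for cytochalasin D 4N cells against untreated 4N and against untreated 2N cells. Changes that reversed for some library left out were CDK4 in the cytochalasin D sort (-0.035 to 0.19), in the cytochalasin D interaction (-0.13 to 0.094) and in the ZM447439 interaction (-0.080 to 0.18), CCND1 in the ZM447439 sort (-0.18 to 0.47) and interaction (-0.43 to 0.22), and CCND3 in the untreated sort (-0.087 to 0.061). For CDK6 they were the cytochalasin D sort (-0.19 to 0.033), the ZM447439 sort (-0.15 to 0.15), ZM447439 in 2N cells (-0.19 to 0.11), ZM447439 4N against untreated 2N cells (-0.16 to 0.018) and the ZM447439 interaction (-0.28 to 0.022).

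On RPKM over the gene span the lowest CCND1 share of the D-type cyclins was 98.6% in place of 90.8%, and the lowest CDK4 share of the kinases 98.0% in place of 87.1%. Depth limits CCND2 alone among the members.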
